A study of Mus musculus with 2 samples.

Results

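The wall of the brain ventricles was examined as a set of 16 µm tissue squares, called bins, in which transcripts of ciliated ependymal cells were dense. A bin was taken as ventricular wall when the 3 by 3 block of bins around it held at least 4 unique molecular identifiers (UMIs, each standing for 1 captured probe molecule) summed over the 4 genes Foxj1, Ccdc153, Tmem212 and Rarres2, when Ttr, the dominant transcript of the choroid plexus, made up less than 2% of the UMIs, and when the bin held at least 100 UMIs. The members were thus chosen by the measured UMIs of these 5 genes, which are given below as a description at most. This rule took 2106 of 119617 bins (1.76%) in the section collected 3 days after injury and 1919 of 103316 bins (1.86%) in the section collected 28 days after injury. Both sections were brain tissue of male C57Bl6 mice, C57BL/6J by the study's methods, that were aged 3 months when they underwent controlled cortical injury (CCI), an impact of a piston on 1 side of the exposed brain, and they were profiled with Visium HD spatial gene expression. Each time point was 1 section, and no sham-operated section was analysed here, so the comparison within each section was between the wall on the injured side and the wall on the opposite side of the same brain. No test over animals was possible, the opposite wall belonged to an injured animal as well, and the 95% intervals below covered counting error only, exact for levels and ratios and from a normal approximation for differences between log2 ratios.

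The injured side was taken as the bins at array columns below 130 at 3 days and below 240 at 28 days. That choice had been made from 6 phagocyte genes, Cd68, Lyz2, Ctsz, Lgals3, Cd52 and Laptm5, whose summed level over all bins was 336 counts per 1e6 UMIs (CPM) on the injured and 92.6 CPM on the opposite side of the 3 day section, and 603 and 81.3 CPM in the 28 day section. The direction of these 6 genes is therefore no result. The wall comprised 1065 bins on the injured and 1041 on the opposite side of the 3 day section, and 1279 and 640 bins in the 28 day section. The wall bins of the injured side were deeper, with a mean depth of 1072 against 879 UMIs at 3 days, and of 1138 against 708 in the 28 day section. The 4 sums were 1141288, 915394, 1455742 and 452881 UMIs. Levels are given in CPM unless UMIs per bin are named, since a bin is a fixed area that can hold parts of several cells, and fewer cells of a type and less RNA per cell cannot be told apart in it.

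Ependymal cells form a single sheet that lines the ventricles and separates cerebrospinal fluid from brain tissue. Each carries a tuft of motile cilia whose beating moves the fluid, and the axoneme of these cilia is built from dynein arms, radial spokes, a central pair apparatus and tektin filaments. A transcriptional programme led by Foxj1, Rfx factors and Myb switches on the genes for this machinery, while the layer just beneath the sheet holds astrocytes, microglia and, in the lateral wall, the stem cells and neuroblasts of the subventricular zone.

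The genes that were not used to select the bins placed them at the ependyma, although these genes came from the same bins and are given as a description. Genes with 20 or more UMIs over both sides were used, and the motile cilia list had 81 of them at 3 days and 79 at 28 days. Wall bins exceeded all other bins by a median of 5.31 and 4.49 on the log2 scale over these genes. Bins just inside the rule, whose block held 4 defining UMIs, had summed motile cilia levels of 1627 CPM (injured side) and 1784 CPM (opposite side) in the 3 day section, and bins just outside it, with 3, had 904 and 1024 CPM. At 28 days the corresponding values were 1714 and 2507 CPM inside and 1281 and 994 CPM outside. Blocks with 12 or more defining UMIs reached 15888 and 19222 CPM at 3 days and 11633 and 16688 CPM at 28 days, so the members ran from sparse edges to a dense ciliated core.

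**Figure D1:**
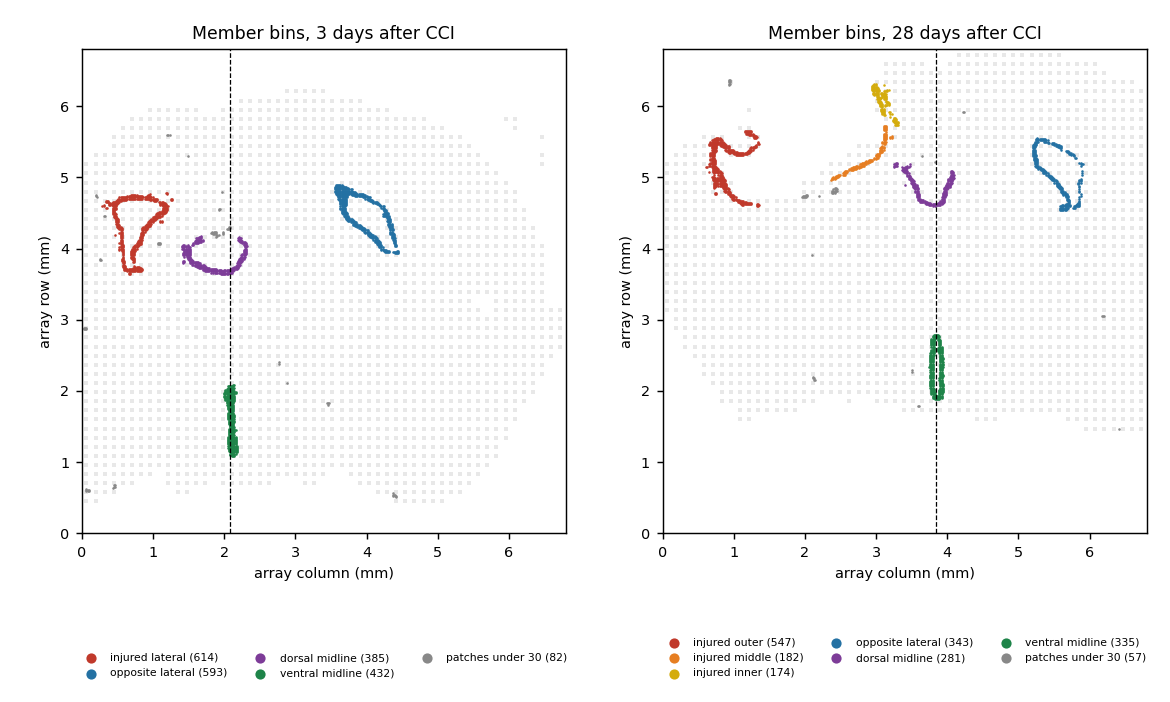
Positions of the ventricular wall bins in both sections, drawn over the tissue on the array grid with axes in mm; colours mark the connected patches and the dashed line marks the boundary between the injured and the opposite side. The 4 patches at 3 days and the 6 patches at 28 days each hold at least 30 bins, and on the injured side of the 28 day section 3 separate patches lie off the midline.

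The wall fell into connected patches, shown in the map of wall bins and named here by position. At 3 days these were an injured lateral patch of 614 bins, an opposite lateral patch of 593 bins, a dorsal midline patch of 385 bins and a ventral midline patch of 432 bins, and 82 bins lay in 16 smaller groups. At 28 days 3 patches off the midline on the injured side, an outer patch of 547 bins, a middle patch of 182 and an inner patch of 174, were counted as its lateral wall, against an opposite lateral patch of 343, and the dorsal and ventral midline patches held 281 and 335 bins. The outer, middle and inner patches lay a median of 2.99, 0.928 and 0.752 mm from the boundary and the opposite lateral patch 1.71 mm. These patches were named by array position alone, the outer patch had no counterpart at its distance on the opposite side, and which part of the ventricle each lined was not determined. The midline patches crossed the boundary unevenly, with 264 of the 385 dorsal bins on the injured side at 3 days. Ratios were therefore also taken over lateral patches that did not cross the boundary, and these are called lateral ratios below. Patches of 1 section are not replicates, since they share an animal and a library.

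Motile cilia genes took a lower share of the UMIs on the injured side in both sections. Of the 86 genes of the list 82 were in the files, and together they made up 10766 CPM in the injured and 15770 CPM in the opposite wall at 3 days. The sums were 6277 and 11796 CPM in the later section. The median log2 ratio of injured over opposite side was -0.55 over the 81 genes tested at 3 days and -0.95 over 79 at 28 days, and in UMIs per bin it was -0.26 at both times. Of the 81 genes, 79 had a ratio below 0 at 3 days in CPM and 67 in UMIs per bin, and of the 79 genes at 28 days, 79 did in CPM and 56 in UMIs per bin. Over all genes with at least 20 UMIs, 6177 of 11545 were below 0 at 3 days in CPM and 3067 in UMIs per bin. At 28 days 7238 of 11402 were in CPM and 2447 in UMIs per bin. The interval lay below 0 for 57 genes at 3 days, against 10.4% of all 11545 genes with at least 20 UMIs, and for 63 genes at 28 days, against 21.8% of 11402 genes. The median of all these genes was -0.03 at 3 days and -0.21 at 28 days.

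A lower level by at least 2-fold was found for 4 motile cilia genes at 3 days, where 2.58% of all genes were that much lower, and for 37 at 28 days, where 10.8% were. In UMIs per bin these counts were 0 and 1, against 130 of all 11545 genes at 3 days and 158 of 11402 at 28 days. No motile cilia gene was at least 2-fold higher at either time. In tissue adjacent to the wall, taken as the other bins 48 to 128 µm from it, the median ratio of these genes was -0.05 at 3 days and 0.19 at 28 days, at a much lower level. The lateral median was -0.78 at 3 days and -1.26 at 28 days. In CPM the difference was thus larger between the lateral walls than over the whole sides. In number per area the whole sides had 11.5 motile cilia UMIs per bin (injured) against 13.9 (opposite) at 3 days and 7.14 against 8.35 at 28 days.

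This comparison is not independent of how the bins were chosen, since the defining genes are themselves transcripts of ciliated cells and the rule counts UMIs, which deeper bins reach more easily. On the injured side 602 of 1065 bins had 12 or more defining UMIs in their block at 3 days and 425 of 1279 at 28 days, and on the opposite side 734 of 1041 and 269 of 640. When at least 8 defining UMIs were required, the motile cilia median was -0.35 at 3 days and -0.68 at 28 days. In CPM the direction thus held under this stricter rule, with a smaller size. In number per area, blocks with 12 or more defining UMIs held 18.5 motile cilia UMIs per bin on the injured and 18.4 on the opposite side at 3 days, and 14.0 on both sides at 28 days. These blocks were chosen by their number of defining UMIs, so near-equal numbers per area in them do not show that the sides were alike.

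Components of several parts of the axoneme shared this direction. Rsph1, a radial spoke protein, had 489 UMIs (428 CPM) on the injured and 561 UMIs (613 CPM) on the opposite side at 3 days, so that the log2 ratio was -0.52 (-0.69 to -0.34). In the 28 day section it had 375 UMIs (258 CPM) and 220 UMIs (486 CPM), a ratio of -0.92 (-1.16 to -0.67). Cfap54, a central pair protein, went from 395 against 570 CPM at 3 days, a ratio of -0.53 (-0.71 to -0.34), to 192 against 479 CPM at 28 days, a ratio of -1.32 (-1.58 to -1.06). Sntn, which encodes sentan at the ciliary tip, stood at 143 against 267 CPM at 3 days (-0.90, -1.20 to -0.61) and 61.1 against 168 CPM at 28 days (-1.46, -1.91 to -0.996). Over whole sides these genes were also lower on the injured side in UMIs per bin, with log2 ratios of -0.23 and -0.23 for Rsph1, -0.24 and -0.64 for Cfap54 and -0.61 and -0.77 for Sntn. Between the lateral walls Rsph1 was nearly equal, at 0.432 (injured) against 0.430 UMIs per bin (opposite) at 3 days and 0.243 against 0.245 at 28 days. Cfap54 was not lower on the injured side there at 3 days (0.463 and 0.425).

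The size of the difference varied among the cilia genes. Ccdc39, which sets the repeat length of the axoneme, was at 463 against 631 CPM at 3 days. Its later values were 333 against 484 CPM, a ratio of -0.54 that turned to 0.15 in UMIs per bin. Cfap43, a tether protein of the axoneme, had ratios of -1.02 (-1.37 to -0.69) and -1.40 (-1.83 to -0.96). The lowest ratio at 28 days belonged to Dnah10, an inner arm dynein heavy chain, with 40 UMIs (27.5 CPM) on the injured and 41 UMIs (90.5 CPM) on the opposite side, a ratio of -1.72 (-2.39 to -1.06). Of the 79 motile cilia genes tested in both sections, 77 had ratios below 0 in both, and 66 had the lower ratio at 28 days. In UMIs per bin these counts were 48 and 37, so most of these genes had the lower ratio at 28 days in CPM only. The same counts were not made over all genes, whose median in CPM was itself lower at 28 days (-0.21) than at 3 days (-0.03). These counts are therefore not read as particular to motile cilia genes. The 2 sections shared no samples, but each was a single animal, so time and animal cannot be told apart.

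**Figure D2:**
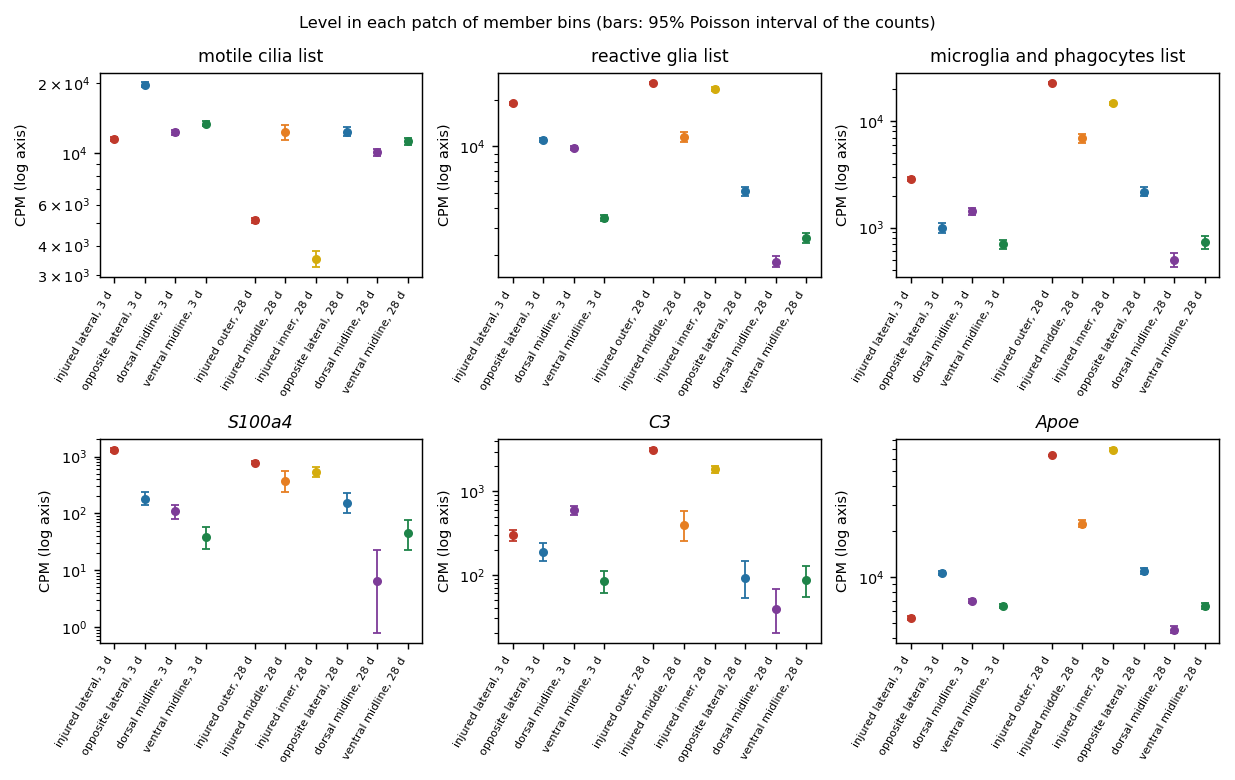
Levels of the motile cilia, reactive glia and microglia and phagocyte lists (summed) and of S100a4, C3 and Apoe in each patch of the wall, 1 point per patch coloured as in the map, on log axes of CPM, with bars for exact 95% Poisson intervals of the counts; the microglia and phagocyte list here includes the 6 genes that had assigned the sides. The injured outer patch at 28 days is at 5132 CPM for motile cilia and 25424 CPM for reactive glia, and the opposite lateral patch is at 12353 and 5151 CPM.

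The plot of summed list levels shows shares by patch, and numbers per bin are set beside them here. At 3 days the injured lateral patch had 11502 CPM of motile cilia transcripts and the opposite lateral patch 19614 CPM. Per bin the same transcripts came to 11.7 UMIs in the injured and 11.4 in the opposite lateral patch, since the injured patch had 1015 UMIs per bin in all and the opposite patch 581. The lateral wall bins thus differed in the share of cilia transcripts and hardly in their number per area, but the rule itself asks for a number of defining UMIs. Depth also differed beyond the wall. At 16 µm from it at 3 days, 360 bins held 270588 UMIs on the injured side and 242 bins held 69768 on the opposite side. What set the depth was not tested.

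At 28 days the injured outer, middle and inner patches had 5132, 12250 and 3494 CPM of motile cilia transcripts, against 12353 CPM in the opposite lateral patch. Per bin these were 8.22, 4.29 and 3.58 UMIs against 6.30. The middle patch was at the CPM of the opposite wall but had only 350 UMIs per bin in all, and the outer patch was above the opposite wall per bin and below it in CPM. The midline patches lay at 10083 CPM (11.2 UMIs per bin) dorsally and 11206 CPM (8.96 UMIs per bin) ventrally.

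Transcription factors of the RFX family bind X-box motifs in cilia gene promoters, and the promoters of the motile cilia list are shown for this feature. Of the 86 genes, 66 had a promoter in the RefSeq table used here (mouse assembly GRCm38.p6, 250 bases before to 50 after each gene's start). The X-box, searched on both strands as the arms GTNNCC and GNAAC separated by any 3 bases, was present in 16 of the 66 (24.2%), and in 673 of 27025 promoters of all genes (2.49%). It was present in 1 of 25 reactive glia promoters and in 0 of 18 microglia and phagocyte promoters. The 5 windows of 30 bases below are those from the motile cilia list that lay before the start and overlapped no annotated exon, each written 5′ to 3′ on the strand of its gene with the matched motif in capitals.
Cfap44: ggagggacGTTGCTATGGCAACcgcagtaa
Spag16: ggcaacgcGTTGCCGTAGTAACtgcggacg
Cfap206: cgcgttccGTTTCCACGGTTACgcgactgc
Iqca: gccttgcaGTTGCCACGGAAACggaaacat
Tekt4: ccccacctGTGTCCTGGGAAACaaactcat

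The window of Cfap44 lay at chr16:44394764-44394793 on the plus strand, with the motif 14 to 27 bases before the start. The windows of Spag16 (chr1:69826859-69826888, plus), Cfap206 (chr4:34730208-34730237, minus), Iqca (chr1:90153515-90153544, minus) and Tekt4 (chr17:25471422-25471451, plus) held it at 90 to 103, 10 to 23, 87 to 100 and 147 to 160 bases before the start. The sequence GTTGCC, a form of the arm GTNNCC that overlaps the X-box, was in 54.5% of the 66 promoters and 14.1% of all. The forkhead core TGTTTAC was in 6.06% and 4.05%. A match describes the letters only.

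The genes with these windows had ratios below 0 in CPM in both sections, as 77 of the 79 motile cilia genes did, and in UMIs per bin Cfap44 (0.05) and Tekt4 (0.55) were above 0 at 28 days. Cfap44, a partner of Cfap43 in the tether complex, was at 301 against 393 CPM at 3 days (-0.39) and had a ratio of -0.63 at 28 days. Spag16, of the central pair, was at 245 against 397 CPM at 3 days, a ratio of -0.69 (-0.92 to -0.46), and its ratio was -1.09 at 28 days. Cfap206, of the radial spokes, had ratios of -0.65 and -0.71, and Iqca had -0.78 and -1.50. Tekt4, a tektin, stood at -0.35 with 42 against 43 UMIs at 3 days and at -0.13 with 42 against 14 UMIs at 28 days.

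Regulators of multiciliation also took a lower share on the injured side. Their median ratio was -0.48 over 8 genes at 3 days and -0.63 over 7 genes at 28 days, which became -0.20 and 0.05 in UMIs per bin. Myb, which drives the amplification of centrioles, had 84 UMIs (73.6 CPM) on the injured and 134 UMIs (146 CPM) on the opposite side at 3 days, a ratio of -0.99 (-1.40 to -0.59). By 28 days it had 78 UMIs (53.6 CPM) and 55 UMIs (121 CPM), a ratio of -1.18 (-1.70 to -0.66). Trp73, a factor upstream of Foxj1, had ratios of -0.64 (-1.23 to -0.07) and -1.40 (-2.36 to -0.41). The ratios of Rfx2 were -0.22 (-0.63 to 0.19) and -0.58 (-1.10 to -0.02) and those of Rfx3 -0.33 (-0.62 to -0.03) and -0.63 (-1.01 to -0.24), while in UMIs per bin Rfx2 was above 0 at both times and Rfx3 at 28 days.

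Of the 4 genes that chose the bins, Foxj1 and Ccdc153 are described without a test. Their UMIs let bins in, so the ratios below depend in part on which gene did so, which the intervals do not cover. Foxj1 is the master regulator of motile ciliogenesis and Ccdc153 an axonemal protein. At 3 days Foxj1 had 1.51 UMIs for each UMI of Ccdc153 (1.33 to 1.72) in the injured lateral patch and 0.79 in each of the other 3 patches. At 28 days the ratio was 2.04 (1.71 to 2.45) in the injured outer patch, 1.47 (0.93 to 2.34) in the inner patch and 0.82 (0.53 to 1.26) in the middle patch, against 0.68 in the opposite lateral patch, 0.61 dorsally and 0.65 ventrally. Set against the motile cilia list, Foxj1, which the rule did use, came to 8.72 UMIs per 100 in the injured lateral patch at 3 days. It came to 5.89, 5.41 and 6.60 in the opposite lateral, dorsal and ventral patches. In the later section it was 8.32, 5.26 and 8.03 in the outer, middle and inner patches and 4.40, 3.85 and 4.57 in the opposite lateral, dorsal and ventral patches.

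Genes of the ependymal surface list, which held adhesion, junction and channel genes and others such as S100b and Six3, had medians near 0 in CPM. Their median was -0.11 over 16 genes at 3 days and -0.15 over 16 at 28 days in CPM, and it was above 0 at both times in UMIs per bin (0.18 and 0.54) and at 28 days after scaling by trimmed means (0.10). At 28 days genes went both ways, with the interval above 0 for 4 and below 0 for 3. Of all 11402 genes, 1379 lay above and 2483 below. Cd24a, a surface glycoprotein of ependymal cells, was at 983 against 1045 CPM at 3 days, a ratio of -0.09 (-0.21 to 0.04). At 28 days it was at 407 against 450 CPM, a ratio of -0.15 (-0.38 to 0.09). The intervals of Cd24a included 0 at both times in CPM. Aqp4, the water channel of glial endfeet and of ependymal cells, was at 849 against 764 CPM at 3 days (0.15, 0.01 to 0.30), with a lateral ratio of -0.32, and at 1325 against 614 CPM at 28 days (1.11, 0.93 to 1.30).

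Reactive glia genes were the opposite of the cilia genes, with higher levels in the wall of the injured side at both times. Their summed level was 15517 against 6682 CPM at 3 days and 19258 against 3431 CPM at 28 days. The median log2 ratio over 32 genes was 1.24 at 3 days and 2.50 at 28 days, or 2.42 when genes absent on the opposite side were set to their lower bound. At 3 days 19 of the 32 genes were at least 2-fold higher, against 4.21% of all genes, and 1 was at least 2-fold lower. At 28 days 25 were at least 2-fold higher, against 9.58% of all genes, and none was that much lower. The lateral median was 0.93 at 3 days and 2.17 at 28 days. A single patch carried much of each value, since the median was 0.40 without the injured lateral patch at 3 days and 1.31 without the injured outer patch at 28 days.

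Gfap and Vim, the intermediate filament proteins of reactive astrocytes and, for Vim, of ependymal cells too, carried much of this sum. Gfap had 5381 UMIs (4715 CPM) on the injured and 1630 UMIs (1781 CPM) on the opposite side at 3 days, a ratio of 1.40 (1.32 to 1.49). In the 28 day section it had 6863 UMIs (4714 CPM) and 394 UMIs (870 CPM), a ratio of 2.44 (2.29 to 2.59). The CPM of Gfap in the injured wall was nearly the same in both sections, and the CPM of the opposite wall was lower in the 28 day section. Vim followed the same course, at 4911 against 2033 CPM at 3 days (1.27) and 4746 against 896 CPM at 28 days (2.40, 2.26 to 2.55).

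Serpina3n, a secreted protease inhibitor of reactive astrocytes, was higher on the injured side both in the wall and beside it. At 3 days it was at 1108 CPM (1265 UMIs) against 297 CPM (272 UMIs) in the wall, a ratio of 1.90 (1.71 to 2.09), and its ratio was 1.26 in the adjacent tissue, which was 0.64 less (0.42 to 0.86). That order held over whole sides only. Around the lateral walls the ratio was 1.39 (1.14 to 1.65) in the wall and 1.73 (1.49 to 1.99) at 48 to 128 µm, and the injured side was at 1218 CPM in the wall and 1238 CPM at 80 to 128 µm. By 28 days it was at 1291 against 83.9 CPM, a ratio of 3.93 (3.48 to 4.45), and 3.75 in the adjacent tissue. Nes, the intermediate filament of progenitors and reactive glia, had the lower ratio in the wall at 3 days, with 1.17 (0.58 to 1.83) in the wall and 2.65 beside it. For the whole list, the median ratio in the adjacent tissue was 1.51 at 3 days, above that of the wall, and 1.47 at 28 days, below it. The median of the wall was thus below that of its surroundings at 3 days (difference -0.27) and above it at 28 days (difference 1.03), but neither order was stable. At 3 days the difference was 0.21 over the 4 patches alone, 0.078 with at least 8 defining UMIs and 0.34 without the opposite lateral patch, and at 28 days it was -0.38 without the injured outer patch.

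C3, the central complement component, was higher in the injured wall in both sections, and far more so at 28 days. At 3 days it had 569 UMIs (499 CPM) on the injured and 120 UMIs (131 CPM) on the opposite side, a ratio of 1.92 (1.64 to 2.22), but the lateral ratio was only 0.65, since the dorsal midline patch had the highest level at 594 CPM. In the later section it had 3143 UMIs (2159 CPM) against 29 UMIs (64.0 CPM), a ratio of 5.05 (4.55 to 5.66). The outer, middle and inner patches were at 3156, 393 and 1834 CPM and the opposite lateral patch at 91.5 CPM, so all 3 injured patches were above the opposite wall. The ratio at 28 days was higher than that at 3 days by 3.13 (2.53 to 3.72) on the log2 scale.

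Lcn2, an iron-binding acute phase protein, was high in the injured wall and the tissue next to it at 28 days, at 1815 CPM in the lateral wall, 1134 at 16 µm, 584 at 32 µm and 23.8 at 80 to 128 µm. Over all wall bins it had 2029 UMIs (1394 CPM) on the injured and 1 UMI (2.21 CPM) on the opposite side, a ratio of 8.72 (6.82 to 14.61). At 3 days there were 32 and 3 UMIs, a ratio of 2.90 (1.42 to 5.45). Steap4, a metalloreductase, had 303 UMIs (208 CPM) on the injured side at 28 days and 0 on the opposite side, which was at least 31.4-fold higher when 3 counts over the opposite side were taken as the floor. At 3 days Steap4 had 14 and 12 UMIs, which did not differ beyond counting error. Timp1, an inhibitor of matrix proteases, had 296 UMIs against 1 at 28 days (5.94, 4.04 to 11.83) and 47 against 10 at 3 days (1.86, 0.91 to 3.06). Cd44, a hyaluronan receptor, was at 84.1 against 42.6 CPM at 3 days (0.97, 0.43 to 1.56), a ratio that fell below 0 without the injured lateral patch, and at 203 against 33.1 CPM at 28 days (2.57, 1.87 to 3.47).

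S100a4, a calcium-binding protein, and Tgm1, a transglutaminase, were outside the lists and were named by their ratios. S100a4 had 876 UMIs (768 CPM) on the injured and 86 UMIs (93.9 CPM) on the opposite side at 3 days, a ratio of 3.02 (2.71 to 3.37). Its level was 1300 CPM in the injured lateral patch and 183, 108 and 38.0 CPM in the opposite lateral, dorsal and ventral patches. At 28 days it was at 561 against 86.1 CPM (2.69, 2.24 to 3.21). Tgm1 had 149 against 6 UMIs at 3 days, a ratio of 4.21 (3.16 to 5.79), and 292 against 2 at 28 days, a ratio of 5.19 (3.64 to 8.56). Both genes were thus more than 2-fold higher in the injured wall in both sections.

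**Figure D3:**
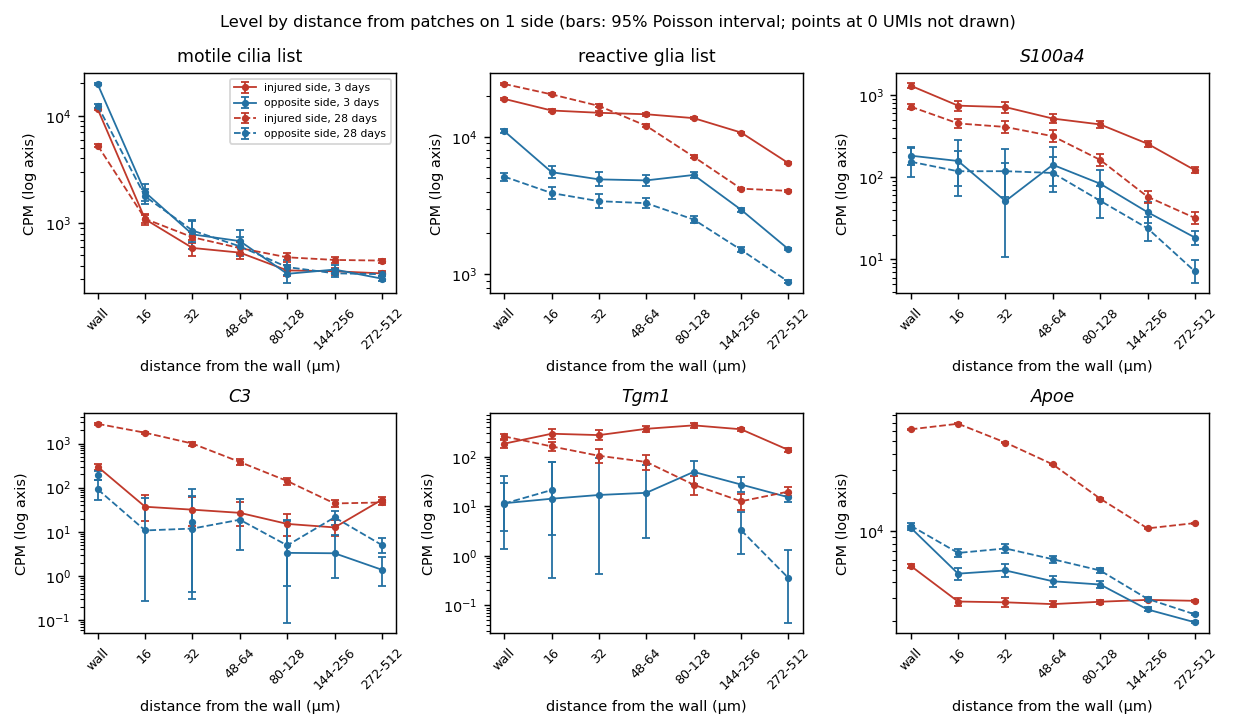
Levels of the motile cilia and reactive glia lists and of S100a4, C3, Tgm1 and Apoe (log axes, CPM) in classes of distance from the lateral wall in µm, for the injured (red) and the opposite side (blue) at 3 days (solid) and 28 days (dashed), with 95% Poisson intervals; levels of 0 are not drawn. C3 at 28 days goes from 2788 CPM in the injured wall to 44 CPM at 144 to 256 µm, while Apoe is as high 16 µm away (68728 CPM) as in the wall (62189 CPM).

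The profile of levels with distance from the lateral wall showed how these transcripts changed away from the wall bins. Motile cilia transcripts dropped within 16 µm, at 3 days from 11502 to 1087 CPM on the injured and from 19614 to 1935 CPM on the opposite side. Bins beyond the wall were bins that failed the rule, and the defining genes are cilia transcripts. The rule itself therefore set at least part of this drop. Reactive glia transcripts declined with distance at both times. At 3 days they were at 18932 CPM in the injured wall, 15581 at 16 µm, 14996 at 32 µm, 13711 at 80 to 128 µm, 10775 at 144 to 256 µm and 6450 at 272 to 512 µm. At 28 days they went from 24308 CPM in the wall to 16826 at 32 µm, 7176 at 80 to 128 µm and 4206 at 144 to 256 µm. Gfap alone was at 5896 CPM in the injured wall at 28 days and at 6518 CPM at 16 µm. For the list, the opposite wall was also above the tissue next to it, at 11036 CPM against 5547 at 16 µm at 3 days and at 5151 against 3909 at 28 days. The dense ciliated core was not highest in the list on the injured side. Over all wall bins there, blocks with 12 or more defining UMIs were at 13870 CPM at 3 days and 15105 CPM at 28 days. Blocks with 5 to 7 were at 20068 and 23520 CPM, and bins just outside the rule at 15827 and 15627 CPM. On the opposite side, blocks with 12 or more were at 7278 and 3370 CPM and bins just outside at 5582 and 1877 CPM.

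C3 was higher in the lateral wall than at 16 µm from it, on both sides of both sections. At 3 days it was at 297 CPM in the injured lateral wall, 37 CPM at 16 µm and 53.5 CPM at 272 to 512 µm. It was at 189 CPM in the opposite wall and 0 at 16 µm. Within the injured wall at 3 days, however, C3 was not densest where cilia transcripts were. Over all wall bins of the injured side at 3 days it was at 298 CPM in blocks with 12 or more defining UMIs, and at 798, 917 and 693 CPM in blocks with 4, 5 to 7 and 8 to 11. Bins just outside the rule there, with 3, were at 351 CPM. On the injured side at 28 days C3 was at 1957 CPM in blocks with 12 or more. It was at 1642, 2589 and 2277 CPM in blocks with 4, 5 to 7 and 8 to 11. On the opposite side at 3 days it was at 144 CPM in blocks with 12 or more and at 233, 0 and 51.7 CPM in those classes. Only on the opposite side at 28 days was C3 highest in blocks with 12 or more, at 93.2 CPM. In the 28 day section it was at 2788 CPM in the injured wall, 1755 at 16 µm, 996 at 32 µm and 382 at 48 to 64 µm, and at 91 and 11 CPM in the wall and at 16 µm on the opposite side. Lcn2 at 28 days ran from 1815 CPM in the injured wall to 584 at 32 µm and 24 at 80 to 128 µm. Over all wall bins of that side it was at 896 CPM in blocks with 12 or more defining UMIs and at 1891 CPM in blocks with 5 to 7. S100a4 at 3 days ran from 1300 CPM in the injured wall to 714 at 32 µm and 439 at 80 to 128 µm. Tgm1 at 3 days was lower in the injured wall, at 186 CPM, than at 80 to 128 µm, at 437 CPM, whereas at 28 days it was highest in the wall, at 261 CPM against 28.

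Microglia and phagocyte genes were higher in the injured wall in both sections. The 6 genes that had assigned the sides were left out here. The other genes of the list summed to 1813 against 599 CPM at 3 days and 11764 against 1022 CPM at 28 days. The median ratio was 1.61 over 17 genes at 3 days, with 16 at least 2-fold higher (4.21% of all genes), and 3.35 over 19 genes at 28 days, with 17 at least 2-fold higher (9.58% of all genes). Across patches their summed level ranged from 550 to 2178 CPM at 3 days. At 28 days it was 16395, 5764 and 11992 CPM in the outer, middle and inner patches and 430 to 1818 CPM in the other 3. In the opposite lateral patch at 28 days 1 of these genes had no UMI. The tissue adjacent to the wall had medians of 1.42 and 2.49, with 13 and 18 of these genes at least 2-fold higher. Of all genes, 575 of 11545 at 3 days and 705 of 11402 at 28 days were that much higher there. With distance from the injured lateral wall the full list, the 6 genes included, went from 2865 CPM in the wall up to 4862 CPM at 144 to 256 µm at 3 days. At 28 days it was at 20590 CPM in the wall, 22501 at 16 µm and 3542 at 144 to 256 µm. The part of these transcripts in the levels of the wall was not tested.

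Markers of microglia and lipid-handling phagocytes illustrate the 2 sections. Tmem119, a marker of resident microglia, had 51 against 10 UMIs at 3 days (1.98, 1.04 to 3.18) and 83 against 4 at 28 days (2.53, 1.28 to 4.60). Gpnmb, a glycoprotein of lipid-laden phagocytes, was at 68.3 against 13.1 CPM at 3 days (2.33, 1.50 to 3.40). By 28 days it had 4234 UMIs (2908 CPM) against 9 UMIs (19.9 CPM), a ratio of 7.12 (6.27 to 8.32), with 4583, 141 and 1155 CPM in the outer, middle and inner patches. Spp1, osteopontin, had 99 against 10 UMIs at 3 days (2.93, 2.05 to 4.09) and 1300 against 10 at 28 days (5.27, 4.45 to 6.40). The outer patch had the highest Gpnmb and Spp1 of the wall at 28 days.

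Antigen presentation and interferon genes had a median ratio of 1.04 over 18 genes at 3 days, with 9 at least 2-fold higher (4.21% of all genes), and 2.04 over 19 genes at 28 days, with 14 (9.58%). In the adjacent tissue 17 and 15 of them were that much higher, against 575 of all 11545 genes at 3 days and 705 of 11402 at 28 days. Class II genes marked the later section. H2-Aa, a class II alpha chain, had 40 against 30 UMIs at 3 days, a ratio of 0.09 (-0.62 to 0.83), and 297 against 1 at 28 days, a ratio of 5.95 (4.04 to 11.84). Cd74, the class II invariant chain, stood at 0.82 (0.22 to 1.47) and 3.44 (2.68 to 4.47). B2m, the light chain of class I molecules, had ratios of 1.36 (0.63 to 2.21) and 2.67 (1.95 to 3.61). Bst2, an interferon-induced membrane protein, was already at 84.1 against 12.0 CPM at 3 days (2.75, 1.90 to 3.86), and was at 129 against 28.7 CPM at 28 days (2.12, 1.36 to 3.11).

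Among secreted proteins, Apoe, the main lipid carrier of the brain, was higher in the injured wall at 28 days and not at 3 days. At 3 days it had 7379 UMIs (6466 CPM) on the injured and 7247 UMIs (7917 CPM) on the opposite side, a ratio of -0.29 (-0.34 to -0.25), which was -0.99 between the lateral walls, 0.04 without the opposite lateral patch and -0.0068 in UMIs per bin. In the later section it had 71565 UMIs (49160 CPM) and 3466 UMIs (7653 CPM), a ratio of 2.68 (2.63 to 2.73), against 1.91 in the adjacent tissue, a difference of 0.77 (0.71 to 0.83) that depended on the distance taken. Around the lateral walls the ratio was 2.49 in the wall, 3.34 at 16 µm, 2.74 at 32 µm, 2.45 at 48 to 64 µm and 1.86 at 80 to 128 µm. The outer, middle and inner patches were at 63652, 22537 and 69156 CPM and the opposite lateral patch at 11044 CPM. Apoe is also made by astrocytes and phagocytes, and their part in this level was not tested.

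The list of secreted genes, Apoe included, was higher on the injured side mainly at 28 days. The median of the list was 0.29 over 16 genes at 3 days, with 2 at least 2-fold higher (4.21% of all genes), and 0.94 over 16 at 28 days, with 8 (9.58%). Chil1, a chitinase-like protein of reactive glia, had 65 against 35 UMIs at 3 days (0.57, -0.04 to 1.21) and 971 against 11 at 28 days (4.72, 3.93 to 5.79), and at 28 days its ratio was 2.30 (1.27 to 3.32) above that of the adjacent tissue. Igfbp5, a binding protein of insulin-like growth factors, was at 1003 against 702 CPM at 3 days (0.51, 0.37 to 0.66), which was 0.09 between the lateral walls, and at 1941 against 567 CPM at 28 days (1.77, 1.59 to 1.96). Clu, the chaperone clusterin, stood at 0.22 (0.15 to 0.29) at 3 days, with a lateral ratio of -0.48, and at 0.81 (0.72 to 0.91) at 28 days.

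Metal-binding and stress genes had medians of 0.75 at 3 days over 18 genes, with 7 at least 2-fold higher (4.21% of all genes), and 0.72 at 28 days over 17, with 6 at least 2-fold higher (9.58%) and 1 lower (10.8%). In the adjacent tissue 7 and 4 were at least 2-fold higher, against 575 of all 11545 genes at 3 days and 705 of 11402 at 28 days. Mt2, a metallothionein, was at 2175 against 1222 CPM at 3 days (0.83, 0.73 to 0.93), and its later values were 4379 against 1115 CPM (1.97, 1.84 to 2.11). The immediate early genes Egr1 and Fos, which are transcribed within minutes of a stimulus, were higher in the injured wall at 3 days. Egr1 was at 251 against 62.3 CPM at 3 days, a ratio of 2.00 (1.60 to 2.45), and at 398 CPM in the injured lateral patch against 58.5 to 69.7 CPM in the others. At 28 days it was at 65.9 against 81.7 CPM, a ratio of -0.32 (-0.87 to 0.28) that was above 0 in UMIs per bin (0.36), and the ratio was 2.32 lower than at 3 days (difference -2.32, -3.01 to -1.64). Fos had ratios of 1.73 (1.38 to 2.11) at 3 days, which turned to -0.08 without the injured lateral patch, and -0.32 (-0.93 to 0.35) at 28 days.

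Genes of the subventricular zone had opposite medians in the sections, and the later one did not keep its sign. The median was 0.66 over 15 genes at 3 days, with 5 at least 2-fold higher (4.21% of all genes). At 28 days it was -0.17 over 11 genes, with 1 at least 2-fold higher (9.58%) and 4 lower (10.8%), and this median was 0.09 after scaling by trimmed means and 0.52 in UMIs per bin. Mki67, of proliferating cells, had 51 UMIs (44.7 CPM) on the injured and 14 UMIs (15.3 CPM) on the opposite side at 3 days, a ratio of 1.51 (0.67 to 2.52), and 12 against 9 UMIs at 28 days (-1.29, -2.64 to 0.16). Dcx, of migrating neuroblasts, had 87 UMIs (76.2 CPM) against 42 UMIs (45.9 CPM) at 3 days, a ratio of 0.72 (0.19 to 1.30), which fell below 0 without the injured lateral patch. In the 28 day section it had 19 UMIs (13.1 CPM) against 20 UMIs (44.2 CPM), a ratio of -1.76 (-2.74 to -0.78) that was -1.07 in UMIs per bin. Igfbpl1, also of neuroblasts, had ratios of 1.77 (0.95 to 2.76) and 1.72 (0.42 to 3.80), the latter with 47 against 4 UMIs, and the former turned to -1.72 without the injured lateral patch. Tanycyte genes had medians of 0.75 and 0.72 over 8 genes, with lateral medians of 0.21 and -0.27.

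**Figure D4:**
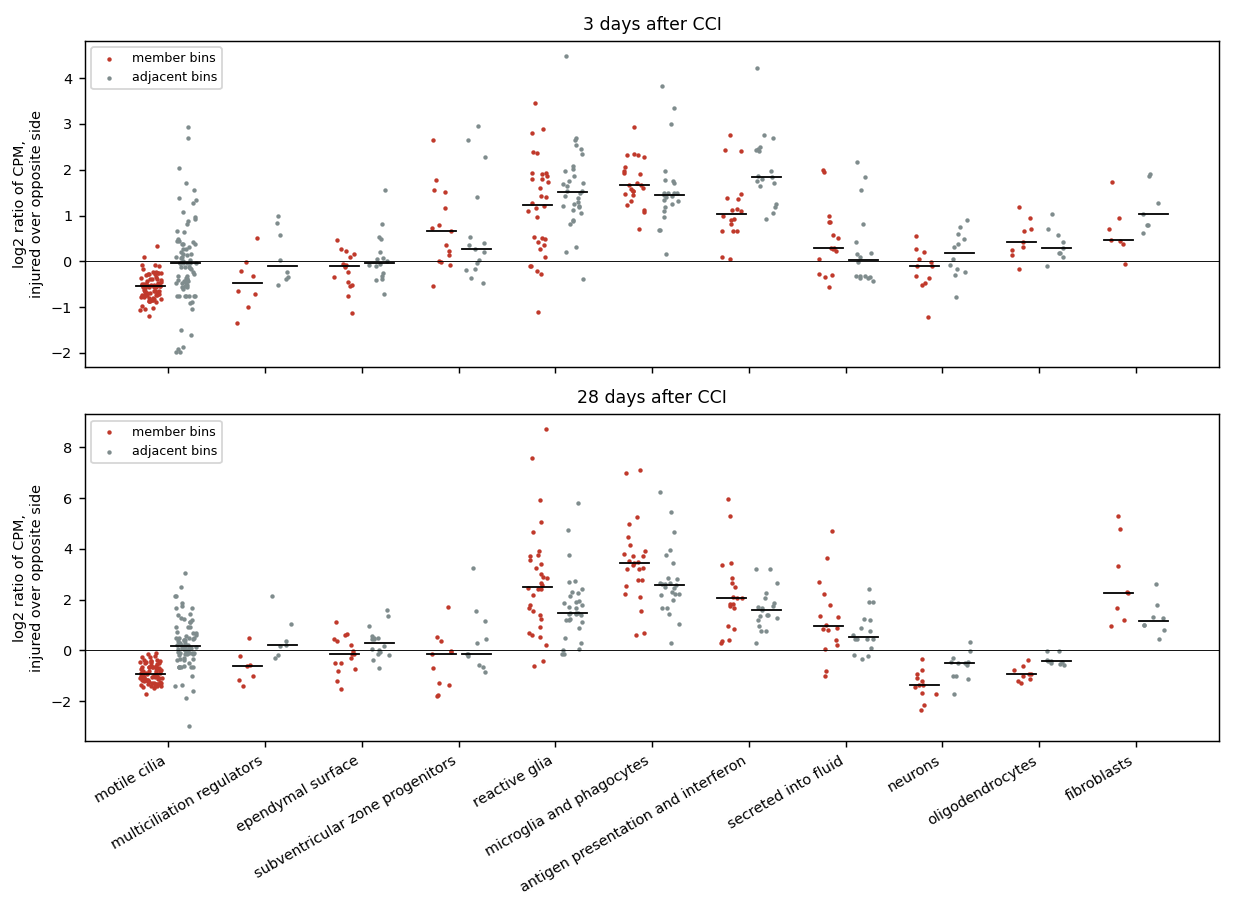
Log2 ratios of CPM, injured over opposite side, for 11 gene lists at 3 and 28 days; each point is a gene with at least 20 UMIs in the wall, red in the wall bins and grey in the adjacent bins, short bars are list medians and the line at 0 marks equal CPM. Wall medians of motile cilia are -0.55 and -0.95, and those of reactive glia are 1.24 and 2.50.

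Markers of other cell types differed between the sides too, as the plot of list ratios shows, and their part in the results above was not tested. Neuron genes had a median of -0.11 over 12 genes at 3 days, 0.82 between the lateral walls, and -1.37 over 12 at 28 days, with 9 at least 2-fold lower (10.8% of all genes). In UMIs per bin 3 were that much lower at 28 days, against 158 of all 11402 genes. Myelin genes had 0.43 over 9 genes at 3 days, which was -0.18 between the lateral walls, and -0.92 over 9 at 28 days. In the patches at 28 days the summed myelin level was 2633, 23495 and 10724 CPM on the injured side and 21043 CPM in the opposite lateral patch, and 1303 and 556 CPM in the dorsal and ventral midline patches. Choroid plexus genes had 0.40 over 6 genes at 3 days, -0.01 between the lateral walls, and -1.27 over 4 at 28 days. Homeostatic astrocyte genes had 0.38 and 0.48 over 10 genes, endothelial genes 0.45 and 0.64 over 6, and mural cell genes 1.13 and 0.72 over 6.

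Fibroblast genes were higher on the injured side mainly at 28 days, with medians of 0.46 over 7 genes at 3 days and 2.28 over 8 at 28 days, where 7 were at least 2-fold higher (9.58% of all genes). They were highest in the outer patch, at 2462 CPM summed, against 62.8 CPM in the middle and 118 CPM in the inner patch and 320 CPM in the opposite lateral patch. Col1a1, the chain of type I collagen, had 70 against 58 UMIs at 3 days (-0.05, -0.57 to 0.48) and 400 against 4 at 28 days (4.79, 3.59 to 6.84), with 445 CPM in the outer patch and 0 in the middle and inner patches. Dcn, decorin, stood at 1.73 (1.31 to 2.19) at 3 days, with 355 CPM in the dorsal midline patch and 48.1 CPM in the injured lateral patch, and at 3.33 (2.64 to 4.23) at 28 days.

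Over all genes with at least 100 UMIs, 120 of 6043 (1.99%) were at least 2-fold higher in the injured wall at 3 days and 68 (1.13%) lower. At 28 days 437 of 5418 (8.07%) were higher and 375 (6.92%) lower. In the adjacent tissue 2.98% of these genes were higher and 0.612% lower in the 3 day section, and 5.13% and 0.24% in the other. Counts at 28 days depended on the scale, with 1133 genes higher and 12 lower in UMIs per bin, and on the injured outer patch, with 45 genes higher and 7 lower when it was left out.

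The highest ratios at 3 days belonged to Tgm1, Avp and S100a4, followed by Spp1, Fcrls, Bst2, Klk6, Ccn1, Ptk2b and Tagln. Avp, the vasopressin precursor of hypothalamic neurons, had 403 against 35 UMIs but lay at 831 CPM in the ventral midline patch and at 0 in both lateral patches, so its ratio rests on the ventral midline patch alone. Fcrls, a microglial receptor, had 134 against 14 UMIs (2.90, 2.14 to 3.85). Ptk2b, a calcium-dependent kinase, was at 333 against 71.0 CPM (2.22, 1.85 to 2.63), and its ratio was -0.16 in the adjacent tissue, a difference of 2.38 (1.99 to 2.76). Around the lateral walls these ratios were 1.80 in the wall and 0.63 at 48 to 128 µm, and its level on the injured side was higher at 16 µm (1016 CPM) than in the wall. Ptk2b was at 550 CPM in the injured lateral patch, 157 in the opposite lateral patch, 28.2 dorsally and 15.2 ventrally. Ccn1, a matrix protein induced by growth signals, was at 298 against 56.8 CPM (2.38, 1.97 to 2.84), and its ratio was -0.47 without the injured lateral patch. Klk6, a myelin-associated protease, and Tagln, an actin-binding protein, had ratios of 2.61 (1.98 to 3.37) and 2.20 (1.81 to 2.63).

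The lowest ratios at 3 days belonged to Scube1, Necab3, Nwd2, Plch2, Lrrc55, Synpr, Tac2, Kcnma1, Anxa8 and Fat3. Scube1 had 15 against 96 UMIs (-2.96, -3.89 to -2.20), yet it was at 238 CPM in the dorsal midline patch and at 0 in both lateral patches. Nwd2 was at 327 CPM and Tac2, the precursor of neurokinin B, at 539 CPM dorsally, against 8.71 CPM or less for each in the lateral patches. These 3 genes lay in the dorsal midline patch, which the boundary splits unevenly, and leaving out bins within 20 columns of the boundary turned Scube1, Nwd2 and Tac2 to ratios above 0. Kcnma1, Lrrc55, Plch2 and Synpr also turned above 0 without those bins. Anxa8, an annexin, was different, with 29 against 81 UMIs (-1.78, -2.47 to -1.17), 30.5 CPM in the injured against 125 CPM in the opposite lateral patch and 0 dorsally.

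At 28 days the highest ratios, with the pseudocount of 0.5 UMI that sets the place of genes with 0 UMIs on the opposite side, belonged to Lcn2, Ccn5, Steap4, Mmp3, Gpnmb, Lyz2, Saa3, H2-Aa and Timp1, followed by H2-Eb1. Lyz2 is 1 of the 6 genes that had assigned the sides. Ccn5, a matrix protein, had 314 UMIs against 0, at least 32.6-fold higher by the same floor, with 297, 78.5 and 275 CPM in the outer, middle and inner patches. Mmp3, a matrix protease, had 291 UMIs against 0, at least 30.2-fold higher, and Saa3, an acute phase protein, had 161 against 0, at least 16.7-fold higher. Mmp3 and Saa3 were at 323 and 178 CPM in the outer patch and at 0 in the middle patch. Saa3 had a ratio of -1.15 in the adjacent tissue, and at 3 days it had 0 against 1 UMI in the wall.

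The lowest ratios at 28 days included several genes of neurons. Penk, the enkephalin precursor, had 75 UMIs (51.5 CPM) against 105 UMIs (232 CPM), a ratio of -2.17 (-2.62 to -1.73), with 63.9 CPM in the outer patch, 0 in the middle and inner patches and 417 CPM in the opposite lateral patch. Gad2, which makes GABA, had 53 against 54 UMIs (-1.71, -2.29 to -1.14), and Grin1, a glutamate receptor subunit, 47 against 55 (-1.91, -2.50 to -1.32). Nalf1, Gng8, Ica1, Lrrn3, Tac2, Nrsn2 and Syt13 made up the rest of the 10 genes named by rank. Lrrn3, Syt13 and Tac2 turned above 0 without bins within 20 columns of the boundary. Nalf1 and Nrsn2 did so with the boundary moved towards the opposite side. Tac2 was again a dorsal midline gene, at 879 CPM there and at 0 in the opposite lateral patch.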

How the data were processed

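Count tables of 2 Visium HD sections (16 µm bins, 19070 genes, mouse probe set) were used as deposited. The authors made these raw UMI counts with Space Ranger (4.0.1 per the file headers), with mm10 as the build named in the submitters' processing notes. The sections held 121967 bins with 120615873 UMIs at 3 days and 105589 bins with 82422389 UMIs at 28 days. UMIs were summed over the wall bins of each side, the 4 defining genes were left out, and log2 ratios of CPM were taken with a pseudocount of 0.5 UMI and exact conditional binomial intervals. List medians, list counts and the shares of all genes given beside them used genes with at least 20 UMIs over both sides. The other counts of genes with a 2-fold difference used genes with at least 100 UMIs. The 10 genes with the highest and the 10 with the lowest ratio among genes with at least 100 UMIs were named, together with genes of the lists. Patches were connected wall bins with gaps of up to 4 bins bridged and at least 30 bins. TMM scaling used edgeR 4.0.16 under R 4.3.3, other steps used Python 3.11.15, numpy 2.4.6, pandas 2.3.3 and scipy 1.17.1, and the script was tested on simulated data. The members, lists and side boundaries were chosen with earlier results of these data known. With 1 section per time point, no test was made.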

Additional observations from a re-analysis of the deposited data

How the results depend on the processing

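No analysis pairing the 2 time points was possible, since each holds 1 section and the labels give no pairing between them. The alternatives that use patches, and those that leave out 1 patch at a time, were chosen after seeing the data. UMIs per bin raised every log2 ratio by 0.29 at 3 days and 0.69 at 28 days, and TMM scaling by 0.04 and 0.25. Of 2702 values of the 123 named gene results under alternatives, 2611 had the sign of the reported value and 2178 lay within its interval. Of the values with the other sign, 46 belonged to ratios whose interval excluded 0, given below, and 45 to ratios whose interval included 0, of Tekt4, Cd24a, Fos, Nes, Egr1 and Mki67 at 28 days and Col1a1, Cd24a, Steap4, Chil1 and Rfx2 at 3 days. The cause of the changes below was not tested, except that a lower gene minimum tests more genes and a stricter bin rule keeps fewer bins.

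At 3 days the count of genes at least 2-fold higher, 120 as reported, was 239 in UMIs per bin, 2104 with no gene minimum, 56 with at least 200 UMIs per gene, 69 with at least 8 defining UMIs, 76 where the bin held a defining UMI itself, 193 with the boundary 10 columns towards the injured side, 75 over patches that did not cross it and 51 to 216 with 1 patch left out. The count lower, 68 as reported, was 26 in UMIs per bin, 1740 with no gene minimum, 22 with at least 200 UMIs per gene, 27 (own defining UMI), 176 (boundary towards the injured side), 38 (towards the opposite side) and 70 to 127. The reactive glia median, 1.24, was 0.53 with the boundary towards the opposite side and 0.40 to 1.87 with 1 patch left out, and its difference from adjacent tissue, -0.27, was 0.21 over patches of at least 30 bins, 0.078 with at least 8 defining UMIs, -0.98 without bins within 20 columns of the boundary, -1.01 with the boundary towards the opposite side and -1.13 to 0.34 with 1 patch left out. The motile cilia median ranged from -0.83 to -0.33 and the microglia median, 1.61 without the 6 genes that assigned the sides, from 1.34 to 1.80 with 1 patch left out (1.36 to 1.93 for the full list).

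At 28 days the count of genes lower, 375 as reported, was 155 under TMM, 12 in UMIs per bin, 2730 with no gene minimum, 136 with at least 200 UMIs per gene, 113 with at least 8 defining UMIs, 208 without Rarres2 in the rule, 166 where the bin held a defining UMI, 244 with the boundary towards the opposite side and 7 to 457 with 1 patch left out. The count higher, 437, was 1133 in UMIs per bin, 1811 with no gene minimum, 230 with at least 200 UMIs per gene, 211 with at least 8 defining UMIs, 237 where the bin held a defining UMI and 45 to 573 with 1 patch left out, where 45 and 7 were without the injured outer patch. The motile cilia median was -0.26 in UMIs per bin and -1.12 to -0.52 with 1 patch left out. The reactive glia median ranged from 1.31 to 3.03 and the microglia median, 3.35 without the 6 genes, from 2.40 to 4.35 (2.37 to 4.35 for the full list), both lowest without the injured outer patch, and the reactive glia difference from adjacent tissue was 0.19 with at least 8 defining UMIs and -0.38 to 1.56 with 1 patch left out.

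Single genes turned sign at 3 days without bins within 20 columns of the boundary (Clu -0.15, Igfbp5 -0.020, Kcnma1 1.88, Lrrc55 2.45, Nwd2 4.08, Plch2 0.087, Scube1 3.44, Synpr 0.30, Tac2 2.73), with the boundary towards the injured side (Avp -9.46) or the opposite side (Aqp4 -0.21, Cd44 -0.21, Clu -0.25, Dcx -0.13, Igfbp5 -0.37), and over patches that did not cross it (Aqp4 -0.32, Clu -0.48, Kcnma1 0.94, Nwd2 1.47, Plch2 0.078, Synpr 0.52), and Aqp4 was -0.051 with at least 8 defining UMIs and -0.042 without Rarres2 in the rule. With 1 patch left out at 3 days the ratio ranged from -0.47 to 2.98 for Ccn1, -0.53 to 2.51 for Cd44, -0.46 to 1.17 for Dcx, -0.083 to 2.15 for Fos, -1.72 to 5.94 for Igfbpl1, -0.10 to 0.37 for Aqp4, -0.13 to 0.63 for Clu, -0.62 to 0.045 for Apoe, -2.49 to 0.10 for Kcnma1, -2.94 to 0.26 for Plch2, -3.64 to 1.28 for Scube1, -2.80 to 0.31 for Synpr, -2.59 to 0.14 for Tac2 and -2.33 to 4.33 for Avp; the value of the other sign came without the injured lateral patch for Ccn1, Cd44, Dcx, Fos and Igfbpl1, the opposite lateral for Apoe, the ventral for Avp and the dorsal for the rest. At 28 days Ccdc39 was 0.15, Cfap44 0.052, Rfx2 0.10 and Rfx3 0.055 in UMIs per bin, Lrrn3 0.29, Syt13 0.36 and Tac2 4.35 without bins within 20 columns, and Nalf1 0.65 and Nrsn2 0.45 with the boundary towards the opposite side.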
